A study of Homo sapiens with 40 samples.

Results

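The data follow how the effect of heregulin (HRG, a neuregulin 1 ligand) on the RNA of BT474 cells changed between 12 h and 24 h. BT474 is a human breast cancer cell line of luminal type that overexpresses HER2 (ERBB2). The comparison rests on 8 of the 40 RNA-seq libraries of the series, with 2 libraries each of cells given vehicle (water) for 12 h, HRG for 12 h, vehicle for 24 h and HRG for 24 h. All cells had been deprived of serum overnight, and the ligand or water was added in fresh starvation medium. The other BT474 libraries were the untreated start, vehicle and HRG at 1 h, and the ligand EGF at every later time, and a further 20 libraries came from BT474R, a single trastuzumab-resistant clone grown out of BT474.

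The HRG effect at a time point is the log2 ratio of HRG over vehicle at that time. Its change is the effect at 24 h minus the effect at 12 h, so it is negative where a rise shrank or a fall deepened. Every gene that had 1 or more counts in 50% or more of the 20 BT474 libraries was tested with all 20 libraries in 1 fit (edgeR quasi-likelihood test), and a gene is called where its adjusted p (Benjamini-Hochberg over all 25146 genes tested) is below 0.05. Levels are CPM (counts scaled to the library total by TMM), given as replicate 1 and replicate 2. CPM is not corrected for gene length, so levels are compared only within a gene. The labels do not say whether the 2 libraries of a group came from separate cultures, and the p-values measure only the spread between these libraries, which may be technical.

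HRG binds HER3 and HER4, which pair with HER2, a receptor with no known ligand of its own. The active pairs signal through the MAP kinase cascade, which switches on immediate early transcription factors within the first hour, and through PI3K and AKT, which keep the FOXO factors out of the nucleus. Later waves bring feedback inhibitors of the pathway, cyclin D1 and the E2F program of DNA synthesis. How long a signal lasts is known to shape which of these programs a breast epithelial cell carries out.

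The 8 libraries held 19941960 to 29098915 counts each. Between replicates of a group the median chi-square per gene was 0.676 to 1.09, against 0.455 from counting noise alone, so that each pair differed by more than counting noise and was kept as 2 replicates. All 10 markers of luminal HER2-positive epithelium were present, with a summed level of 15160 to 15410 CPM (vehicle) and 16910 to 16990 CPM (HRG) at 12 h, and 13540 to 13950 CPM (vehicle) and 13040 to 13610 CPM (HRG) at 24 h. Of the marker lists of other cell types, 3 of 5 basal, 5 of 6 fibroblast, 3 of 4 endothelial and 4 of 5 leukocyte markers stayed below 1 CPM in all 8 libraries, KRT5, KRT14, ACTA2, PDGFRB, PECAM1 and PTPRC among them. The fibroblast sum of 76.7 to 109 CPM was nearly all COL1A1. The other markers above 1 CPM were TP63 (3.12 to 9.43 CPM) and MYLK (4.36 to 8.41 CPM) of the basal list, VWF (13.3 to 18 CPM) and CD68 (1.5 to 3.56 CPM).

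The HRG effect changed between 12 h and 24 h at 628 of 25146 genes (2.5%), downward at 436 (1.73%) and upward at 192 (0.764%). By comparison HRG altered 6482 genes (25.8%) at 12 h and 6062 (24.1%) at 24 h. Of the 4078 genes with an effect of the same sign called at both times, 217 were called for the change and 3861 were not. The median size of the effect at these 4078 genes was 0.38 at 12 h and 0.36 at 24 h, and over all genes tested the median change was 0.0053. The number called depended on single libraries. It fell to 398 without vehicle replicate 1 at 12 h and to 372 without HRG replicate 2 at 12 h.

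The called genes fall into 6 patterns, described by the calls at each time and with no test of their own, since they use the libraries that made the call. A rise at 12 h shrank in 242 genes (median effect 0.52 at 12 h and 0.11 at 24 h), and a fall at 12 h shrank in 73 (-0.50 and -0.063). A rise grew or first appeared at 24 h in 100 genes (0.086 and 0.59), and a fall did so in 157 (-0.027 and -0.54). The effect was called at both times with opposite signs in 54 genes, of which 36 went from a rise to a fall (0.23 and -0.22) and 18 from a fall to a rise (-0.36 and 0.38). The remaining 2, TCAP and ZBTB7C, were called at neither time. Without vehicle replicate 1 at 12 h, 189 rises or falls faded and 32 effects reversed, and without HRG replicate 2 at 12 h 179 faded, 163 built up and 29 reversed, against 315, 257 and 54 in all libraries. Without vehicle replicate 2 at 12 h 35 reversed.

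**Figure D1:**
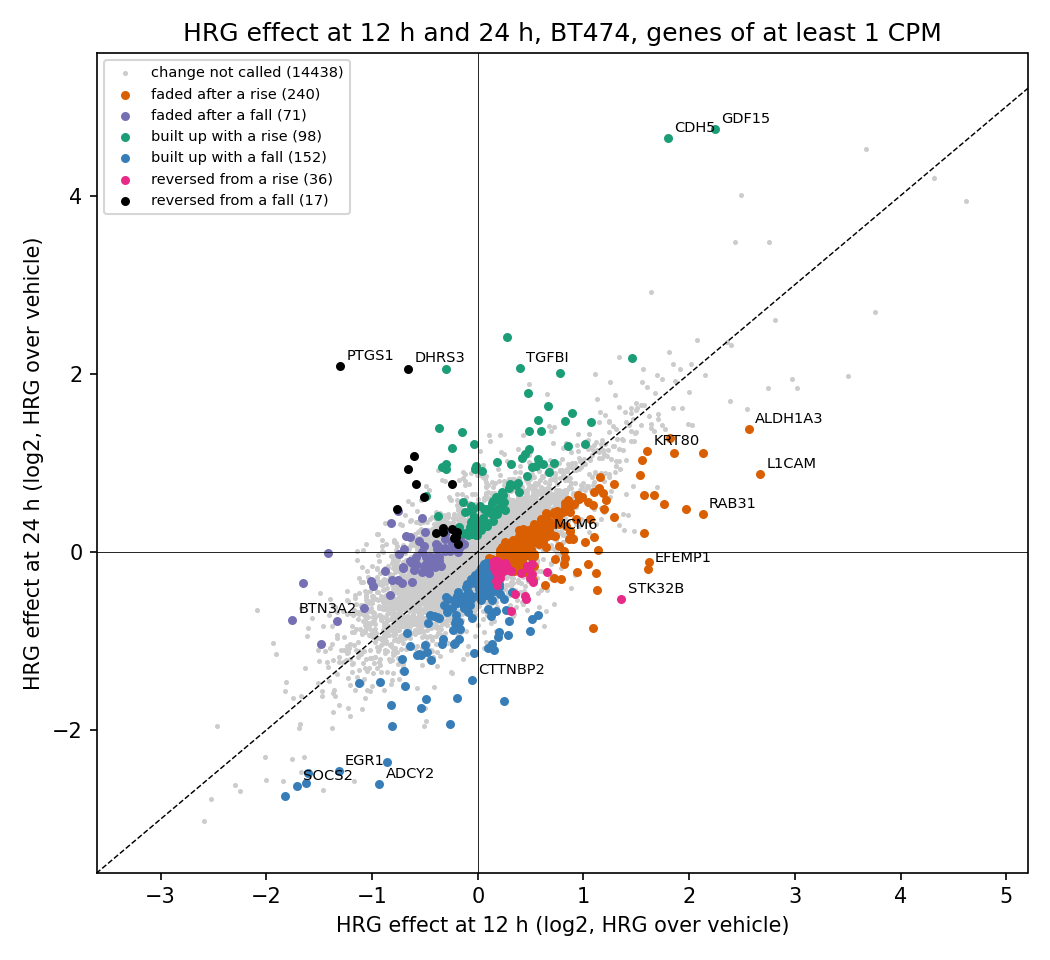
HRG effect at 12 h (x axis, log2) against 24 h (y axis, log2) for genes of at least 1 CPM in BT474, with the called genes coloured by pattern (616, of which 2 without a pattern are not drawn) and 14438 genes that were not called in grey. Points below the dashed line of equal effects changed downward, and most faded rises lie between that line and an effect of 0 at 24 h.

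A change of the effect can come from the cells with HRG, from those with vehicle, or from both. Between 12 h and 24 h, 2975 genes (11.8%) moved with HRG and 907 (3.61%) with vehicle. The first count was 1981 and 1747 without HRG replicates 1 and 2 at 12 h and 1978 without HRG replicate 1 at 24 h, and the second was 441 to 584 when any of the 4 vehicle libraries was left out. Of the 436 genes called downward, 396 were called over time with HRG and 99 with vehicle. Of the 192 called upward, the counts were 145 and 58. In most called genes the level with HRG moved, whereas among the DNA replication genes and the mitochondrial rows the vehicle level did in more members than the HRG level.

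L1CAM was among the rises that faded. This gene, which codes for an adhesion molecule of neurons and many carcinomas, measured 2.45 and 2.87 CPM with vehicle against 16.3 and 17.4 CPM with HRG at 12 h, and 2.15 and 2.33 CPM against 3.81 and 4.46 CPM at 24 h. Its HRG libraries stood far above vehicle at 12 h and remained above it, by less, at 24 h. Its effect went from 2.67 at 12 h to 0.87 at 24 h, a change of -1.80 ± 0.24 (SE, adjusted p = 3.7e-06). EFEMP1, a fibulin of the extracellular matrix, measured 2.63 and 2.41 CPM with vehicle against 8.21 and 7.33 CPM with HRG at 12 h, and 2.19 and 3.04 CPM against 2.15 and 2.54 CPM at 24 h. The groups were apart at 12 h and overlapped at 24 h, and the change was -1.80 ± 0.28 (SE, adjusted p = 5.8e-05). RAB31, a GTPase of vesicle traffic, measured 2.59 and 2.29 CPM with vehicle against 10.6 and 10.8 CPM with HRG at 12 h, and 2.88 and 3.002 CPM against 4.33 and 3.502 CPM at 24 h, with a change of -1.71 ± 0.23 (SE, adjusted p = 5.4e-06). CCN3, a matricellular protein, measured 3.62 and 4.66 CPM with vehicle against 8.17 and 9.74 CPM with HRG at 12 h, and 2.54 and 2.92 CPM against 2.39 and 1.63 CPM at 24 h, so that the HRG libraries went from above to below the vehicle libraries. Its change was -1.56 ± 0.25 (SE, adjusted p = 9.3e-05), while the effect at 24 h was -0.43 (adjusted p = 0.14).

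TNFRSF11B, which encodes osteoprotegerin, a decoy receptor for RANKL, measured 1.03 and 1.83 CPM with vehicle against 4.21 and 4.39 CPM with HRG at 12 h, and 1.56 and 1.19 CPM against 1.18 and 1.33 CPM at 24 h, and its change was -1.73 ± 0.37 (SE, adjusted p = 0.0039). UGT1A6 codes for a glucuronosyltransferase and shares its last exons with the other UGT1A genes, whose reads cannot be told apart here. It measured 1.31 and 0.707 CPM with vehicle against 2.91 and 1.59 CPM with HRG at 12 h, and 1.07 and 0.7505 CPM against 0.415 and 0.584 CPM at 24 h, with a change of -1.95 ± 0.54 (SE, adjusted p = 0.04). Both genes were at 24 h back within or below the range of vehicle. TNFRSF11B was not called without vehicle replicate 1 at 12 h or vehicle replicate 1 at 24 h (-1.54 to -1.35), and UGT1A6 was not called without vehicle replicate 2 at 12 h, HRG replicate 1 at 12 h, either vehicle library at 24 h or HRG replicate 1 at 24 h (-2.21 to -1.48) or under the DESeq2 Wald test, with the stricter count filter or after thinning to equal depth. Receptor and matrix genes outside the naming rule are given with the lists that hold them.

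**Figure D2:**
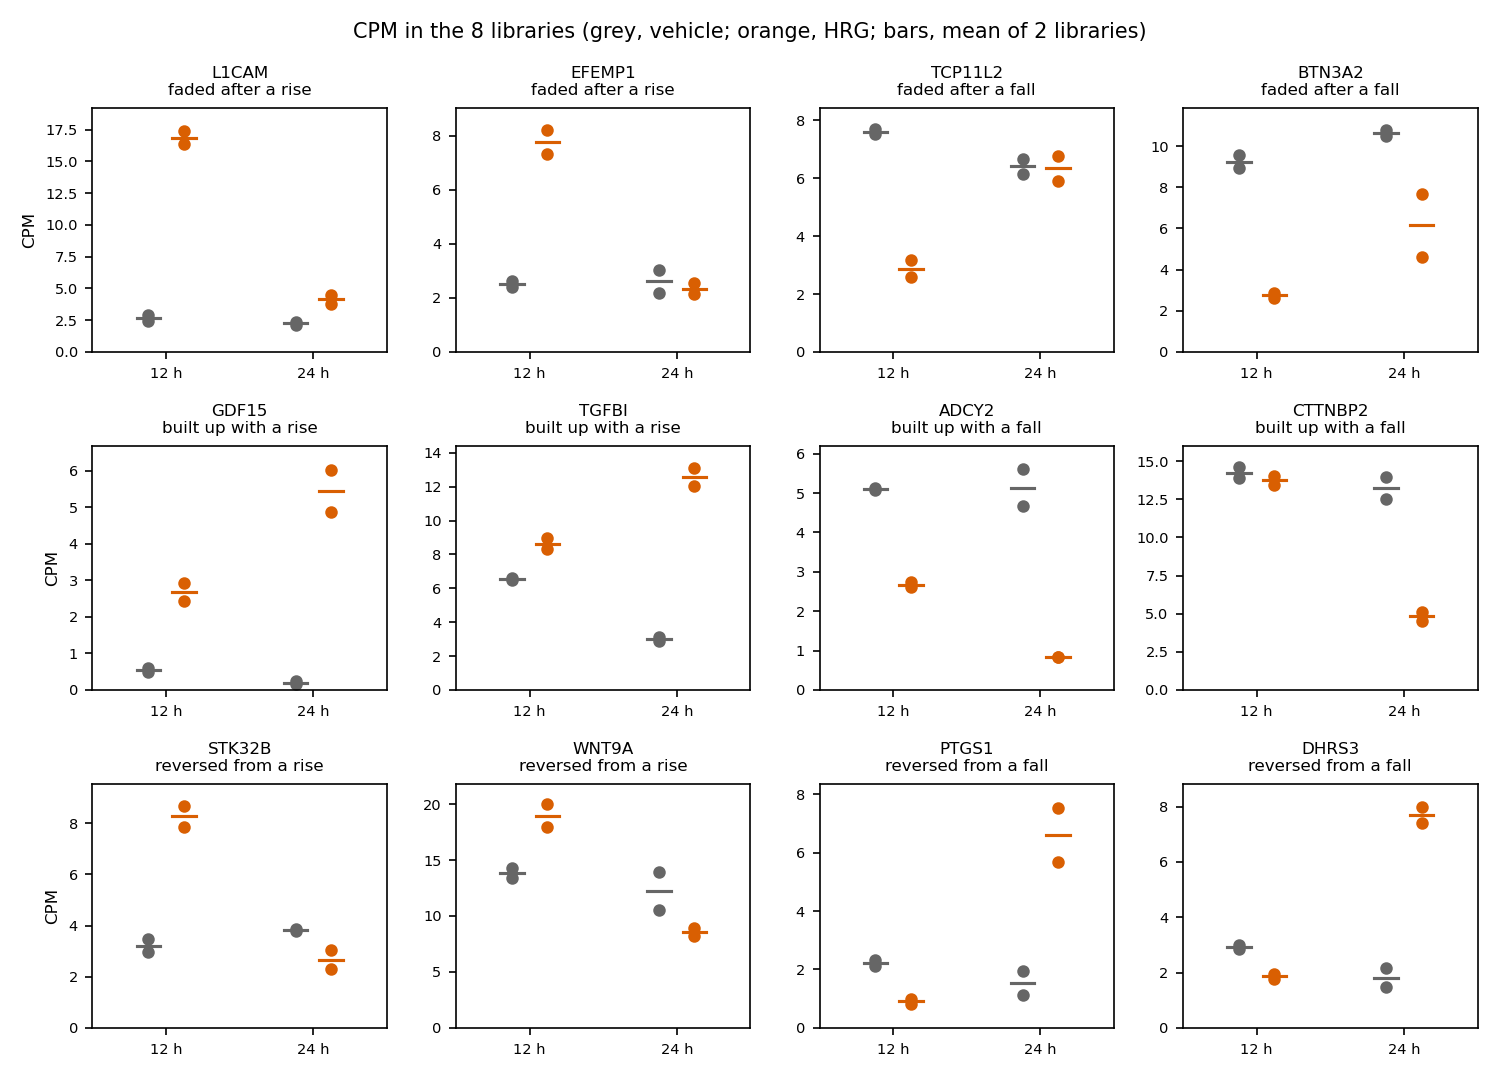
CPM (y axis) of 12 genes named by the rule, in the 8 libraries at 12 h and 24 h (grey, vehicle, and orange, HRG, with bars at the mean of 2 libraries). L1CAM and EFEMP1 stand above vehicle only or mostly at 12 h, whereas TGFBI separates further from vehicle at 24 h and DHRS3 and PTGS1 cross from below to above it.

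DNA replication genes made up a group whose called members all belonged to the faded rises. The list holds the MCM helicase, its loaders, polymerase accessory factors, nucleotide synthesis and the S-phase regulators E2F1 and UHRF1. HRG raised 42 of its 43 genes at 12 h and 41 at 24 h, where 13.3% and 12.5% of all genes tested were called up, and the median effect was 0.50 at 12 h and 0.29 at 24 h. The change was called downward in 11 of 43, upward in none, and its estimate was below 0 in 37. Over all genes tested 1.73% were called downward and the median change was 0.0053.

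The vehicle level of nearly all these genes rose over the same hours. Between 12 h and 24 h, 41 of the 43 genes rose with vehicle and 33 rose with HRG, against 1.85% and 5.02% of all genes, with median changes over time of 0.41 and 0.23. MCM6, a subunit of the replicative helicase, measured 108 and 107 CPM with vehicle against 169.9 and 169 CPM with HRG at 12 h, and 142 and 140.4 CPM against 159 and 162 CPM at 24 h. The vehicle level rose by 0.39 (adjusted p = 1.9e-08) while the change with HRG was -0.082 (adjusted p = 0.22), and the effect changed by -0.47 ± 0.058 (SE, adjusted p = 5.6e-07). E2F1, a transcription factor that drives S-phase genes, measured 19.9 and 21.3 CPM with vehicle against 32.7 and 31.4 CPM with HRG at 12 h, and 30.1 and 29.6 CPM against 33.2 and 34.9 CPM at 24 h. Here too the vehicle libraries rose and those with HRG stayed near their 12 h level, with a change of the effect of -0.44 ± 0.095 (SE, adjusted p = 0.0034). TK1, the thymidine kinase of the salvage pathway, measured 51.03 and 51.7 CPM with vehicle against 71.9 and 75.1 CPM with HRG at 12 h, and 71.7 and 72.7 CPM against 79.7 and 77.7 CPM at 24 h, with a change of -0.39 ± 0.074 (SE, adjusted p = 7.3e-04).

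RRM2, the small subunit of ribonucleotide reductase, rose in both arms and measured 125 and 117 CPM with vehicle against 209 and 218 CPM with HRG at 12 h, and 194 and 193 CPM against 286 and 282 CPM at 24 h. The rise over time was 0.68 with vehicle and 0.41 with HRG, which left a change of the effect of -0.27 ± 0.065 (SE, adjusted p = 0.014). UHRF1, which recruits DNA methylation to newly made strands, changed by -0.38 ± 0.084 (SE, adjusted p = 0.0044). MCM10 and CDC6, which load and activate the helicase, changed by -0.35 ± 0.079 (SE, adjusted p = 0.0051) and by -0.35 ± 0.077 (SE, adjusted p = 0.005). The other called members were MCM2 (-0.26), MCM3 (-0.24), MCM5 (-0.34) and the histone chaperone subunit CHAF1A (-0.26).

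MCM6 and TK1 were called in every alternative tried and without each single library. The other 9 depended on single libraries, and 7 members were called without vehicle replicate 1 at 12 h, 7 without vehicle replicate 2 at 12 h and 5 without HRG replicate 2 at 12 h. E2F1 was not called without vehicle replicate 1 at 12 h (-0.40). RRM2 was not called without vehicle replicate 2 at 12 h or HRG replicate 2 at 12 h (-0.24 to -0.22). UHRF1 was not called without HRG replicate 2 at 12 h (-0.33), MCM10 without vehicle replicate 2 at 12 h (-0.30) and CDC6 without vehicle replicate 2 at 12 h (-0.29). MCM2 was not called without vehicle replicate 1 at 12 h or HRG replicate 2 at 12 h (-0.26 to -0.20), and MCM5 was not called without HRG replicate 2 at 12 h or vehicle replicate 2 at 24 h (-0.31 to -0.28). MCM3 was not called without vehicle replicate 1 at 12 h, HRG replicate 2 at 12 h, vehicle replicate 1 at 24 h or HRG replicate 1 at 24 h (-0.23 to -0.19). CHAF1A was not called without either vehicle library at 12 h, either HRG library at 12 h, vehicle replicate 1 at 24 h or HRG replicate 1 at 24 h (-0.27 to -0.22) or under the DESeq2 Wald test, with no filter on low counts or in a fit of the 8 libraries alone.

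E2F factors bind short words that S-phase promoters often carry. The 250 bases before the start of each gene (RefSeq, GRCh38.p14) were searched on both strands for TTTCCCGC, TTTCGCGC, TTTGCCGC and TTTGGCGC. Of the 11 called replication genes, 10 had an entry, and 4 of these held a word. Among members that were not called, 11 of 27 did (40.7%), and among all genes tested with an entry 594 of 15526 did (3.83%). The share was thus close between called and uncalled members of the list, and among all faded rises it was 10 of 184 (5.43%). The 4 promoters are shown because they are those of the called members that hold a word, with words and their reverse complements in capitals, and in MCM6 each capital run holds a word and an overlapping reverse complement.
E2F1 (chromosome 20, minus strand, chr20:33686386-33686635): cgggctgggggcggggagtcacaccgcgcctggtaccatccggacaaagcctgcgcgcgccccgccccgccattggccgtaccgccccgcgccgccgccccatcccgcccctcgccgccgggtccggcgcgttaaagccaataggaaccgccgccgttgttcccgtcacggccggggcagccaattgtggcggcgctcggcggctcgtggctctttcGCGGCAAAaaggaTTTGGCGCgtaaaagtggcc
MCM3 (chromosome 6, minus strand, chr6:52284743-52284992): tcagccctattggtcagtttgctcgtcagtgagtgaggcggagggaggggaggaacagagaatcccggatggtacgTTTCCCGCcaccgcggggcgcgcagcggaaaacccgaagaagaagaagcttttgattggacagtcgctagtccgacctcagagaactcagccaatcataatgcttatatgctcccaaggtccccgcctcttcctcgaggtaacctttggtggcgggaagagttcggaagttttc
MCM6 (chromosome 2, minus strand, chr2:135876444-135876693): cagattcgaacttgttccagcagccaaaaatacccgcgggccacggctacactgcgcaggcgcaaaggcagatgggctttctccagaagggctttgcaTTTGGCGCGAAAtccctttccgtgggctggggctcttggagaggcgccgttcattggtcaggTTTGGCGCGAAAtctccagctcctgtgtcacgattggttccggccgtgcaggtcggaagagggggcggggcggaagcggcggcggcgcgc
UHRF1 (chromosome 19, plus strand, chr19:4909251-4909500): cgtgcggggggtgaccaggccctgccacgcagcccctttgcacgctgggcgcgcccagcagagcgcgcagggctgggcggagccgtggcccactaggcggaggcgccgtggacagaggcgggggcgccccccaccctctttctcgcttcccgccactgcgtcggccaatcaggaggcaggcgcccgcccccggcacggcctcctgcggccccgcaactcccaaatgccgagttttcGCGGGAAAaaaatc
The E2F1 promoter held 2 words, MCM6 4, and MCM3 and UHRF1 1 each. A match describes the letters only, and binding was not measured.

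A set of keratins faded as their level with HRG fell. Of 28 genes tested in the list of keratins and squamous genes, 6 were called downward and none upward, where 1.73% and 0.764% of all genes were, and all 6 were rises that shrank. KRT8, the main type II keratin of luminal cells, measured 1531 and 1581 CPM with vehicle against 2608 and 2687 CPM with HRG at 12 h, and 1331 and 1355 CPM against 1651 and 1690 CPM at 24 h. The HRG libraries changed by -0.66 between 12 h and 24 h, the vehicle libraries changed by -0.21 (adjusted p = 6.4e-06), and the effect went from 0.77 at 12 h to 0.31 at 24 h, a change of -0.45 ± 0.042 (SE, adjusted p = 3.6e-09). Its partner KRT18 measured 654 and 659 CPM with vehicle against 1186 and 1188 CPM with HRG at 12 h, and 567 and 583 CPM against 828 and 894 CPM at 24 h, with a change of -0.27 ± 0.050 (SE, adjusted p = 6.5e-04). KRT80, a keratin of epithelial junctions, measured 40.9 and 45.4 CPM with vehicle against 132 and 129 CPM with HRG at 12 h, and 36.9 and 35.00 CPM against 80.3 and 76.5 CPM at 24 h and changed by -0.47 ± 0.076 (SE, adjusted p = 8.4e-05). All of these remained above vehicle at 24 h in every library.

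KRT7 measured 783 and 809 CPM with vehicle against 1331 and 1341 CPM with HRG at 12 h, and 623 and 659 CPM against 840.1 and 917 CPM at 24 h and changed by -0.29 ± 0.049 (SE, adjusted p = 1.6e-04). KRT19 changed by -0.29 ± 0.043 (SE, adjusted p = 1.7e-05). GSDMA, a gasdermin of skin that forms membrane pores once cleaved, measured 0.426 and 0.125 CPM with vehicle against 1.78 and 2.55 CPM with HRG at 12 h, and 0.439 and 0.158 CPM against 0.277 and 0.2502 CPM at 24 h, with a change of -3.02 ± 0.77 (SE, adjusted p = 0.021). GSDMA was not called without vehicle replicate 2 at 12 h, HRG replicate 2 at 12 h or vehicle replicate 1 at 24 h (-2.72 to -2.19) or under the DESeq2 Wald test. The 5 keratins kept their call in every alternative and without each single library. KRT8 and KRT18 have many processed copies in the genome, and how reads shared with them were counted is not stated. The list as a whole does not move one way, since its median effect was 0.86 at 12 h and 1.14 at 24 h and 15 of 28 estimates were above 0, while 9 of 28 genes fell over time with HRG (6.81% of all genes) and 6 with vehicle (1.76%).

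**Figure D3:**
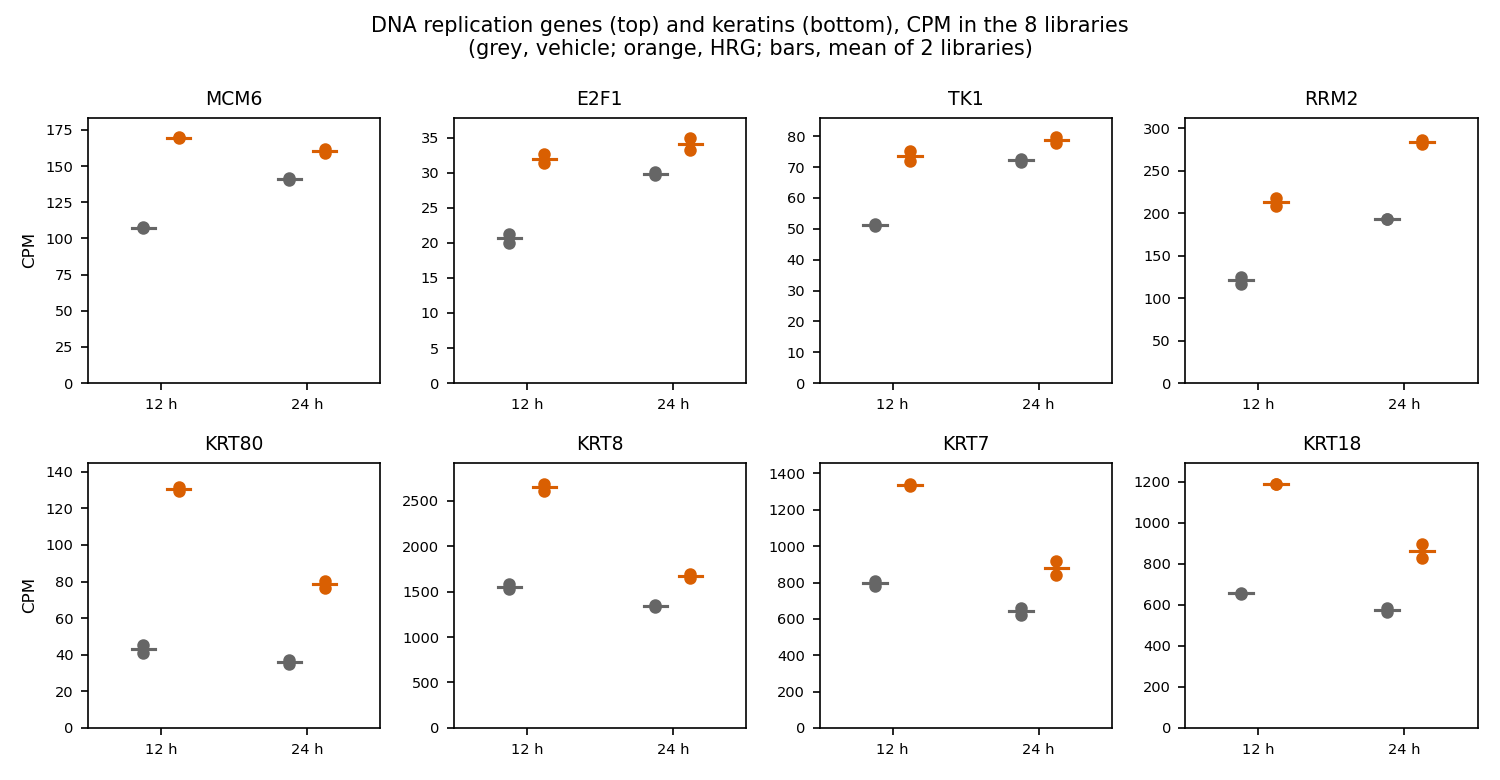
CPM (y axis, from 0) of 4 DNA replication genes (top) and 4 keratins (bottom) in the 8 libraries at 12 h and 24 h, with vehicle in grey, HRG in orange and bars at the mean of 2 libraries. The vehicle level of MCM6, E2F1, TK1 and RRM2 is higher at 24 h than at 12 h, while the HRG level of the 4 keratins is lower at 24 h.

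The actin cytoskeleton genes ACTB, MYH9 and FLNA changed in the same direction as the keratins. The genes of this paragraph were picked after their values were seen and are named because they were also called for a difference from EGF. ACTB, cytoplasmic beta-actin, measured 4201 and 4346 CPM with vehicle against 5782 and 5811 CPM with HRG at 12 h, and 3595 and 3516 CPM against 3682 and 3692 CPM at 24 h, with a change of -0.39 ± 0.039 (SE, adjusted p = 1.4e-08). Its rise at 12 h was no longer called at 24 h (0.053, adjusted p = 0.19). MYH9, a non-muscle myosin heavy chain, changed by -0.43 ± 0.040 (SE, adjusted p = 3.6e-09) and FLNA, the actin crosslinker filamin A, by -0.47 ± 0.040 (SE, adjusted p = 1.2e-09). Actin has processed copies too, and the sharing of their reads is not stated.

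In the list of adhesion, matrix and protease genes 8 of 27 genes were called downward and 1 upward, beside 1.73% and 0.764% of all genes. The median effect was 0.48 at 12 h and 0.059 at 24 h. The called integrin genes lost part or all of their rise. ITGB4, the integrin of hemidesmosomes that binds laminin, measured 66.3 and 66.9 CPM with vehicle against 126 and 130.4 CPM with HRG at 12 h, and 61.2 and 62.9 CPM against 97.3 and 95.2 CPM at 24 h and changed by -0.31 ± 0.067 (SE, adjusted p = 0.0038). Its partner ITGA6 changed by -0.44 ± 0.091 (SE, adjusted p = 0.0024), and ITGB1 by -0.24 ± 0.054 (SE, adjusted p = 0.0058). CDH3, or P-cadherin, changed by -0.43 ± 0.091 (SE, adjusted p = 0.0032).

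Other members of this list went below vehicle at 24 h. CD44, the hyaluronan receptor, measured 28.3 and 29.1 CPM with vehicle against 39.9 and 42.1 CPM with HRG at 12 h, and 30.2 and 28.4 CPM against 24.1 and 25.2 CPM at 24 h. Its libraries with HRG lay above vehicle at 12 h and below it at 24 h, a change of -0.76 ± 0.099 (SE, adjusted p = 1.7e-06). VIM, the intermediate filament of mesenchymal cells, measured 34.2 and 34.8 CPM with vehicle against 38.3 and 39.6 CPM with HRG at 12 h, and 41.1 and 35.7 CPM against 23.1 and 25.1 CPM at 24 h, and its change was -0.84 ± 0.098 (SE, adjusted p = 2.5e-07). CDH2, or N-cadherin, was already lower with HRG at 12 h and fell further below vehicle, with 23.9 and 22.2 CPM with vehicle against 13.99 and 14.7 CPM with HRG at 12 h, and 30.7 and 28.8 CPM against 11.6 and 9.09 CPM at 24 h and a change of -0.82 ± 0.13 (SE, adjusted p = 9.1e-05). CDH5, the cadherin of endothelial junctions, was the member called upward and was low, measuring 0.213 and 0.291 CPM with vehicle against 0.956 and 0.815 CPM with HRG at 12 h, and 0 and 0.237 CPM against 3.08 and 3.75 CPM at 24 h, with 1 vehicle library at 0. Its change was 2.85 ± 0.80 (SE, adjusted p = 0.043). CDH5 was not called without either vehicle library at 12 h, either HRG library at 12 h, vehicle replicate 1 at 24 h or HRG replicate 2 at 24 h (2.02 to 3.07) or under the DESeq2 Wald test, with the stricter count filter or after thinning to equal depth, and the estimate was 7.54 without vehicle replicate 2 at 24 h, which leaves only the library at 0. ITGB1 was not called without vehicle replicate 2 at 12 h, vehicle replicate 1 at 24 h or HRG replicate 2 at 24 h (-0.21 to -0.18). The endothelial markers PECAM1, KDR and TEK stayed below 1 CPM throughout, while the endothelial marker VWF measured 13.3 to 18 CPM.

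YAP and TEAD target genes, which respond to cell spreading and tension, gave 3 of 10 called downward and none upward, beside 1.73% and 0.764% of all genes. LATS2, a kinase that restrains YAP, measured 7.49 and 8.15 CPM with vehicle against 9.38 and 8.68 CPM with HRG at 12 h, and 7.61 and 7.74 CPM against 5.61 and 5.46 CPM at 24 h, with a change of -0.68 ± 0.16 (SE, adjusted p = 0.013). AMOTL2, an angiomotin that binds YAP, had an early rise of 1.02 at 1 h (adjusted p = 7.5e-19), and its effect then went from 0.27 at 12 h to -0.10 at 24 h, a change of -0.38 ± 0.084 (SE, adjusted p = 0.005). TEAD1, the DNA-binding partner of YAP, changed by -0.28 ± 0.070 (SE, adjusted p = 0.015). LATS2 was not called without vehicle replicate 1 at 12 h, HRG replicate 1 at 12 h or vehicle replicate 2 at 24 h (-0.67 to -0.61). AMOTL2 was not called without vehicle replicate 1 at 12 h or vehicle replicate 1 at 24 h (-0.32 to -0.30), and TEAD1 was not called without vehicle replicate 1 at 12 h, HRG replicate 2 at 12 h, vehicle replicate 1 at 24 h or HRG replicate 2 at 24 h (-0.25 to -0.19).

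The luminal regulators that were called mostly lost ground to vehicle. Of 22 genes in the list of steroid receptors and luminal regulators, 6 were called downward (1.73% of all genes) and 1 upward (0.764%), and the median effect was -0.018 at 12 h and -0.19 at 24 h. GATA3, a transcription factor that maintains luminal identity, measured 562 and 566 CPM with vehicle against 421 and 405 CPM with HRG at 12 h, and 521 and 541 CPM against 316 and 334 CPM at 24 h. All HRG libraries lay below vehicle at both times and the fall deepened, with a change of -0.26 ± 0.052 (SE, adjusted p = 0.0016). PGR, the progesterone receptor, measured 644 and 638 CPM with vehicle against 279 and 309.5 CPM with HRG at 12 h, and 760.4 and 715 CPM against 279.9 and 251 CPM at 24 h, with a change of -0.35 ± 0.075 (SE, adjusted p = 0.0033). Its vehicle level rose by 0.20 while the change with HRG was -0.15 (adjusted p = 0.065). TFAP2C, an AP-2 factor that regulates ESR1 and ERBB2, measured 280.0 and 279 CPM with vehicle against 279 and 275 CPM with HRG at 12 h, and 259 and 256 CPM against 211 and 215 CPM at 24 h, with no effect called at 12 h and a change of -0.26 ± 0.051 (SE, adjusted p = 0.0015).

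SCUBE2, a secreted protein expressed with the estrogen receptor, measured 6.64 and 7.196 CPM with vehicle against 8.17 and 7.69 CPM with HRG at 12 h, and 6.88 and 7.15 CPM against 3.67 and 3.88 CPM at 24 h. It had the largest change of the called members of this list, -1.10 ± 0.17 (SE, adjusted p = 4.3e-05). AGR2, a disulfide isomerase of secretory cells, instead lost part of a rise, from 0.87 at 12 h to 0.45 at 24 h, a change of -0.43 ± 0.050 (SE, adjusted p = 3.3e-07). TFF1, a secreted trefoil peptide and estrogen target, changed by -0.32 ± 0.090 (SE, adjusted p = 0.048). XBP1, a regulator of the secretory apparatus, was the member called upward, at 0.20 ± 0.046 (SE, adjusted p = 0.0066). TFF1 was not called without vehicle replicate 2 at 12 h, either HRG library at 12 h, vehicle replicate 1 at 24 h or HRG replicate 2 at 24 h (-0.36 to -0.21) or under the DESeq2 Wald test, with the stricter count filter or in a fit of the 8 libraries alone. XBP1 was not called without vehicle replicate 1 at 12 h, HRG replicate 1 at 12 h or vehicle replicate 2 at 24 h (0.16 to 0.19), and PGR was not called without HRG replicate 2 at 12 h (-0.27).

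None of the 4 ERBB receptors was called for the change. The estimates were -0.11 for ERBB2 (95% confidence interval -0.18 to -0.035), 0.12 for ERBB3 (0.015 to 0.23), -0.29 for EGFR (-0.47 to -0.11) and 0.36 for ERBB4 (0.13 to 0.58). Of 10 tested ERBB ligands none was called either, beside 2.5% of all genes.

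Most immediate early factors were not called for the change. At 1 h, when HRG altered 2.77% of genes (2.16% upward and 0.604% downward), it had raised EGR1 by 4.04 and JUNB by 2.03 on the log2 scale. EGR1 then measured 34.8 and 34.6 CPM with vehicle against 16.2 and 12.01 CPM with HRG at 12 h, and 26.8 and 30.7 CPM against 4.64 and 5.96 CPM at 24 h. It stood below vehicle at both later times, with an effect that went from -1.31 at 12 h to -2.46 at 24 h and a change of -1.15 ± 0.14 (SE, adjusted p = 9.6e-07). JUNB, an AP-1 subunit, measured 92.2 and 96.3 CPM with vehicle against 102 and 100.2 CPM with HRG at 12 h, and 91.7 and 95.8 CPM against 74.2 and 80.9 CPM at 24 h, and its change was -0.38 ± 0.075 (SE, adjusted p = 0.0015). These were the 2 of 22 factors of the list that were called, both downward, where 1.73% of all genes were. The median effect of the list was 2.07 at 1 h, 0.038 at 12 h and 0.12 at 24 h.

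Among 22 feedback genes of the MAP kinase and receptor pathways, 2 were called downward and 1 upward, beside 1.73% and 0.764% of all genes. SOCS2, a suppressor of cytokine signaling, measured 18.3 and 19.1 CPM with vehicle against 6.04 and 5.38 CPM with HRG at 12 h, and 18.04 and 19.1 CPM against 2.73 and 3.33 CPM at 24 h, and its fall deepened, with a change of -0.91 ± 0.17 (SE, adjusted p = 9.9e-04). ERRFI1, which binds and inhibits the ERBB kinase domain, had risen by 1.21 at 1 h, and its rise then went from 0.69 at 12 h to 0.30 at 24 h, a change of -0.39 ± 0.088 (SE, adjusted p = 0.007). DUSP4, a phosphatase of nuclear MAP kinases, measured 483 and 501 CPM with vehicle against 987 and 999 CPM with HRG at 12 h, and 359 and 383 CPM against 845 and 867 CPM at 24 h. Its level fell with both treatments over time, less with HRG (-0.21) than with vehicle (-0.41), so that its effect grew by 0.19 ± 0.053 (SE, adjusted p = 0.038). ERRFI1 was not called without HRG replicate 2 at 12 h, vehicle replicate 2 at 24 h or HRG replicate 1 at 24 h (-0.36 to -0.30). DUSP4 was not called without either vehicle library at 12 h, either HRG library at 12 h, vehicle replicate 1 at 24 h or HRG replicate 2 at 24 h (0.15 to 0.22) or with the stricter count filter or after thinning to equal depth.

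Targets of FOXO and other genes of the PI3K branch moved back toward vehicle where they were called, 3 of 18, beside 2.5% of all genes. KLHL24 measured 73.6 and 71.1 CPM with vehicle against 27.9 and 29.6 CPM with HRG at 12 h, and 69.04 and 66.1 CPM against 41.2 and 37.4 CPM at 24 h, and its fall shrank, with a change of 0.55 ± 0.093 (SE, adjusted p = 1.5e-04). TXNIP, an arrestin that restrains glucose uptake, measured 294 and 286 CPM with vehicle against 221 and 226 CPM with HRG at 12 h, and 283 and 285 CPM against 260.0 and 258 CPM at 24 h, and its fall shrank, with a change of 0.24 ± 0.050 (SE, adjusted p = 0.0025). IRS1, the insulin receptor adaptor, measured 39.7 and 38.4 CPM with vehicle against 64.8 and 64.4 CPM with HRG at 12 h, and 45.05 and 39.6 CPM against 51.2 and 44.1 CPM at 24 h, and its rise shrank, with a change of -0.55 ± 0.088 (SE, adjusted p = 8.3e-05). All 3 kept their call in every alternative and without each single library.

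Of the 14 G1 cyclins and CDK inhibitors 3 were called, all downward, where 1.73% of all genes were. CCND1, cyclin D1, measured 582 and 604 CPM with vehicle against 959 and 953 CPM with HRG at 12 h, and 573 and 586 CPM against 709 and 739 CPM at 24 h. Its level fell with HRG (-0.40, adjusted p = 8.4e-10) and the estimate with vehicle was -0.034 (adjusted p = 0.8), a change of the effect of -0.37 ± 0.056 (SE, adjusted p = 3.6e-05). CDK2 changed by -0.25 ± 0.070 (SE, adjusted p = 0.043) and CDK6 by -0.50 ± 0.14 (SE, adjusted p = 0.04). CDK2 was not called without either vehicle library at 12 h, either HRG library at 12 h, vehicle replicate 2 at 24 h or HRG replicate 2 at 24 h (-0.26 to -0.19) or after thinning to equal depth. CDK6 was not called without either vehicle library at 12 h, HRG replicate 2 at 12 h, vehicle replicate 2 at 24 h or HRG replicate 1 at 24 h (-0.54 to -0.36) or under the DESeq2 Wald test, with the stricter count filter or after thinning to equal depth.

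Falls at 12 h that had gone or shrunk at 24 h included TCP11L2, which measured 7.701 and 7.53 CPM with vehicle against 3.17 and 2.59 CPM with HRG at 12 h, and 6.14 and 6.68 CPM against 6.78 and 5.92 CPM at 24 h. The groups were apart at 12 h and overlapped at 24 h, and the change was 1.40 ± 0.21 (SE, adjusted p = 1.9e-05). ZBTB20, a zinc-finger repressor, measured 4.75 and 4.45 CPM with vehicle against 1.17 and 1.700 CPM with HRG at 12 h, and 4.19 and 4.54 CPM against 3.39 and 3.502 CPM at 24 h and changed by 1.31 ± 0.27 (SE, adjusted p = 0.0028). BTN3A2, a butyrophilin of the immunoglobulin family, measured 9.55 and 8.94 CPM with vehicle against 2.87 and 2.62 CPM with HRG at 12 h, and 10.8 and 10.5 CPM against 7.68 and 4.63 CPM at 24 h, and the 2 HRG libraries at 24 h were unlike each other. Its change was 1.00 ± 0.22 (SE, adjusted p = 0.0046). BTN3A2 was not called without HRG replicate 2 at 12 h or HRG replicate 1 at 24 h (0.56 to 0.93). BTG2, an antiproliferative gene induced by p53 and by growth factors, was the 1 of 8 BTG and ZFP36 genes called, upward, where 0.764% of all genes were. BTG2 measured 123 and 122 CPM with vehicle against 78.4 and 72.1 CPM with HRG at 12 h, and 106 and 113 CPM against 99.5 and 95.4 CPM at 24 h and changed by 0.54 ± 0.070 (SE, adjusted p = 2.3e-06). The clock gene NR1D2, a heme-binding repressor, measured 58.7 and 58.7 CPM with vehicle against 31.9 and 34.7 CPM with HRG at 12 h, and 57.6 and 56.9 CPM against 47.8 and 44.1 CPM at 24 h and changed by 0.50 ± 0.082 (SE, adjusted p = 1.2e-04).

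Rises that grew or first appeared at 24 h were led by low genes. TGFBI, a matrix protein induced by TGF-beta, measured 6.49 and 6.61 CPM with vehicle against 8.298 and 8.96 CPM with HRG at 12 h, and 2.88 and 3.12 CPM against 13.1 and 12.1 CPM at 24 h. Its vehicle level changed by -1.12 over the 12 h while its level with HRG rose by 0.54, and the effect went from 0.40 at 12 h to 2.06 at 24 h, a change of 1.66 ± 0.18 (SE, adjusted p = 9.9e-08). GDF15, a cytokine of cell stress, was raised by 2.02 at 1 h and measured 0.603 and 0.499 CPM with vehicle against 2.91 and 2.44 CPM with HRG at 12 h, and 0.244 and 0.158 CPM against 4.88 and 6.004 CPM at 24 h. Its effect grew by 2.50 ± 0.56 (SE, adjusted p = 0.0054). BPIFA2, a secreted protein of salivary glands, measured 2.41 and 1.21 CPM with vehicle against 2.69 and 1.84 CPM with HRG at 12 h, and 0.7801 and 0.7900 CPM against 3.94 and 4.46 CPM at 24 h and changed by 2.13 ± 0.39 (SE, adjusted p = 4.9e-04).

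H1-4, a linker histone, measured 0.745 and 1.17 CPM with vehicle against 0.782 and 0.744 CPM with HRG at 12 h, and 0.488 and 0.474 CPM against 2.11 and 1.88 CPM at 24 h, and changed by 2.35 ± 0.50 (SE, adjusted p = 0.0032). FAM177B measured 0.958 and 1.12 CPM with vehicle against 0.869 and 0.744 CPM with HRG at 12 h, and 0.7801 and 0.632 CPM against 1.56 and 2.17 CPM at 24 h and changed by 1.76 ± 0.47 (SE, adjusted p = 0.029). In both genes the HRG libraries were above vehicle at 24 h only. Replication-dependent linker histone RNA carries no poly(A) tail for the most part, and the libraries were made from poly(A) RNA. H1-4 was not called without vehicle replicate 2 at 12 h (2.02) or under the DESeq2 Wald test. FAM177B was not called without either vehicle library at 12 h, either HRG library at 12 h, vehicle replicate 2 at 24 h or HRG replicate 2 at 24 h (1.52 to 1.88) or under the DESeq2 Wald test. GDF15 was not called without vehicle replicate 1 at 12 h or vehicle replicate 2 at 24 h (2.19 to 2.34), and BPIFA2 was not called without vehicle replicate 1 at 12 h (1.52).

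Mitotic genes were raised at both times, with 34 of 38 called up at 12 h and 37 at 24 h, where 13.3% and 12.5% of all genes were. The median effect was 0.29 at 12 h and 0.45 at 24 h, and 36 of 38 estimates of the change were above 0. TOP2A, the topoisomerase that untangles chromosomes, was called upward for the change, 1 of 38 beside 0.764% of all genes. It measured 278 and 276 CPM with vehicle against 308 and 305 CPM with HRG at 12 h, and 322 and 301 CPM against 412 and 383 CPM at 24 h, with a change of 0.20 ± 0.054 (SE, adjusted p = 0.029). TOP2A was not called without either vehicle library at 12 h, either HRG library at 12 h, vehicle replicate 2 at 24 h or HRG replicate 1 at 24 h (0.15 to 0.21) or in a fit of the 8 libraries alone. The count of members called was followed after seeing the data. It stayed at 1 under the DESeq2 Wald test, after thinning to equal depth and in a fit of the 8 libraries alone. It was 2 with the stricter count filter, 3 with no filter and with a replicate block, and 4 with a block within each time point. Without most of the single libraries the count was lower than with all libraries. Over time, 19 of the 38 genes rose and 3 fell with HRG (5.02% and 6.81% of all genes), and 10 rose and 6 fell with vehicle (1.85% and 1.76%). The DNA replication and mitosis lists thus had median changes of opposite sign, -0.16 and 0.15, a difference between the lists that was not tested.

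Among falls that grew or first appeared at 24 h, 145 of 157 genes were called over time with HRG (11.8% of all genes). With vehicle 18 were called (3.61% of all genes), 11 of them also with HRG, and 5 were called with neither. CTTNBP2, a cortactin-binding protein, measured 13.9 and 14.6 CPM with vehicle against 14.03 and 13.5 CPM with HRG at 12 h, and 13.99 and 12.5 CPM against 5.12 and 4.54 CPM at 24 h. The groups overlapped at 12 h and were far apart at 24 h, a change of -1.39 ± 0.15 (SE, adjusted p = 8.4e-08). ADCY2, an adenylyl cyclase, measured 5.08 and 5.12 CPM with vehicle against 2.61 and 2.73 CPM with HRG at 12 h, and 5.61 and 4.66 CPM against 0.831 and 0.834 CPM at 24 h, and its fall deepened, with a change of -1.68 ± 0.28 (SE, adjusted p = 1.5e-04). PCDH7, a protocadherin, measured 5.93 and 6.86 CPM with vehicle against 3.82 and 3.26 CPM with HRG at 12 h, and 7.17 and 6.28 CPM against 1.35 and 1.25 CPM at 24 h, and its fall deepened, with a change of -1.50 ± 0.25 (SE, adjusted p = 1.9e-04).

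CYP1A2, a cytochrome P450 of the aryl hydrocarbon response, measured 4.54 and 4.24 CPM with vehicle against 5.13 and 5.35 CPM with HRG at 12 h, and 6.53 and 5.69 CPM against 2.11 and 1.67 CPM at 24 h. With HRG it stood above vehicle at 12 h, without a call, and below it at 24 h, a change of -1.92 ± 0.25 (SE, adjusted p = 2.2e-06). THBD, the thrombin receptor thrombomodulin, measured 2.91 and 2.496 CPM with vehicle against 2.302 and 2.23 CPM with HRG at 12 h, and 3.51 and 2.81 CPM against 0.761 and 0.875 CPM at 24 h, with a change of -1.68 ± 0.32 (SE, adjusted p = 7.6e-04). ESRRB, an orphan nuclear receptor, measured 1.24 and 1.75 CPM with vehicle against 1.48 and 1.13 CPM with HRG at 12 h, and 2.19 and 1.98 CPM against 0.657 and 0.667 CPM at 24 h, with a change of -1.45 ± 0.41 (SE, adjusted p = 0.044). ESRRB was not called without vehicle replicate 1 at 12 h, either HRG library at 12 h, either vehicle library at 24 h or either HRG library at 24 h (-1.64 to -1.21) or under the DESeq2 Wald test or after thinning to equal depth.

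Reversals from a rise to a fall were mostly small at both times. STK32B, a serine/threonine kinase, had the largest, measuring 3.48 and 2.95 CPM with vehicle against 7.86 and 8.68 CPM with HRG at 12 h, and 3.85 and 3.79 CPM against 2.28 and 3.04 CPM at 24 h. Both HRG libraries were above vehicle at 12 h and below it at 24 h, with effects of 1.36 (adjusted p = 1.3e-09) and -0.53 (adjusted p = 0.021), and the change was -1.89 ± 0.23 (SE, adjusted p = 4.7e-07). WNT9A, a Wnt ligand, measured 13.4 and 14.3 CPM with vehicle against 17.9 and 19.98 CPM with HRG at 12 h, and 10.5 and 13.9 CPM against 8.201 and 8.92 CPM at 24 h, with a change of -0.99 ± 0.16 (SE, adjusted p = 6.1e-05). DNAJC6, the auxilin that uncoats clathrin vesicles, measured 7.24 and 7.32 CPM with vehicle against 8.17 and 9.85 CPM with HRG at 12 h, and 7.26 and 7.39 CPM against 4.36 and 4.92 CPM at 24 h, with a change of -0.98 ± 0.18 (SE, adjusted p = 3.8e-04). S100A10, the light chain of the annexin A2 complex, was chosen after its values were seen and measured 122 and 123 CPM with vehicle against 166 and 177 CPM with HRG at 12 h, and 121 and 114 CPM against 105 and 100.4 CPM at 24 h, with a change of -0.68 ± 0.064 (SE, adjusted p = 3.6e-09).

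Reversals from a fall to a rise included the largest change among genes named by the rule. PTGS1, the constitutive cyclooxygenase, measured 2.13 and 2.33 CPM with vehicle against 0.999 and 0.815 CPM with HRG at 12 h, and 1.12 and 1.94 CPM against 7.54 and 5.67 CPM at 24 h. The HRG libraries stood below vehicle at 12 h and above it at 24 h, the effect went from -1.30 at 12 h to 2.08 at 24 h, and the change was 3.39 ± 0.32 (SE, adjusted p = 3.6e-09). DHRS3, a reductase that turns retinaldehyde back to retinol and is induced by retinoic acid, measured 2.98 and 2.87 CPM with vehicle against 1.96 and 1.77 CPM with HRG at 12 h, and 1.46 and 2.17 CPM against 7.99 and 7.42 CPM at 24 h. It crossed in the same way, with a change of 2.72 ± 0.27 (SE, adjusted p = 9.4e-09). Of the 13 retinoid genes 1 was called upward and 2 downward, beside 0.764% and 1.73% of all genes. ALDH1A3, which makes retinoic acid, measured 2.66 and 2.62 CPM with vehicle against 14.6 and 16.5 CPM with HRG at 12 h, and 3.66 and 2.84 CPM against 7.92 and 8.84 CPM at 24 h, a rise that shrank, with a change of -1.18 ± 0.22 (SE, adjusted p = 7.8e-04). RARA, a retinoic acid receptor, went from 0.45 at 12 h to 0.015 at 24 h, a change of -0.44 ± 0.079 (SE, adjusted p = 4.3e-04).

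Rows of mitochondrial tRNA genes were among the upward calls, and this list was chosen after the values were seen. Of 22 rows 8 were called upward, where 0.764% of all genes were, and none downward, and all 22 estimates were above 0 (median 0.70). Over time 12 of the 22 rows fell with vehicle, against 1.76% of all genes, and none rose, and with HRG 2 rose and none fell. The EGF effect, which shares the vehicle libraries, also changed upward at 8 of the 22 rows (0.29% of all genes), with a median change of 0.65. The summed level of the rows was 2378 and 2701 CPM with vehicle and 2121 and 1500 CPM with HRG at 12 h, and 1809 and 1551 CPM with vehicle and 1830 and 2213 CPM with HRG at 24 h. At 24 h the groups were apart by little and at 12 h the 2 HRG libraries were far from each other.

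TRNS2, the second serine tRNA, measured 9.37 and 8.69 CPM with vehicle against 8.25 and 4.003 CPM with HRG at 12 h, and 4.19 and 3.99 CPM against 7.197 and 10.2 CPM at 24 h, with a change of 1.67 ± 0.30 (SE, adjusted p = 4.1e-04). TRNH, the histidine tRNA, measured 59.9 and 62.5 CPM with vehicle against 53.6 and 25.2 CPM with HRG at 12 h, and 27.4 and 30.97 CPM against 41.2 and 71.7 CPM at 24 h, and changed by 1.59 ± 0.28 (SE, adjusted p = 3.1e-04). In both, HRG replicate 2 at 12 h was about as low as the vehicle libraries at 24 h, and HRG replicate 2 at 24 h was the highest library. TRNT, TRNC and TRNN, the threonine, cysteine and asparagine tRNAs, changed by 1.21 ± 0.25 (SE, adjusted p = 0.003), by 1.14 ± 0.22 (SE, adjusted p = 0.0012) and by 0.86 ± 0.20 (SE, adjusted p = 0.0074). TRNT was not called without HRG replicate 2 at 12 h (0.77) or under the DESeq2 Wald test. TRNC was not called without vehicle replicate 2 at 12 h (0.79) or under the DESeq2 Wald test, and TRNN was not called without vehicle replicate 2 at 12 h, HRG replicate 2 at 12 h or HRG replicate 2 at 24 h (0.57 to 0.67) or under the DESeq2 Wald test, with a lowest estimate of 0.57 without HRG replicate 2 at 24 h. Mature tRNA carries no poly(A) tail of the kind the library kit selects, copies of these genes lie in the nuclear genome, and how reads shared with them were counted is not stated.

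**Figure D4:**
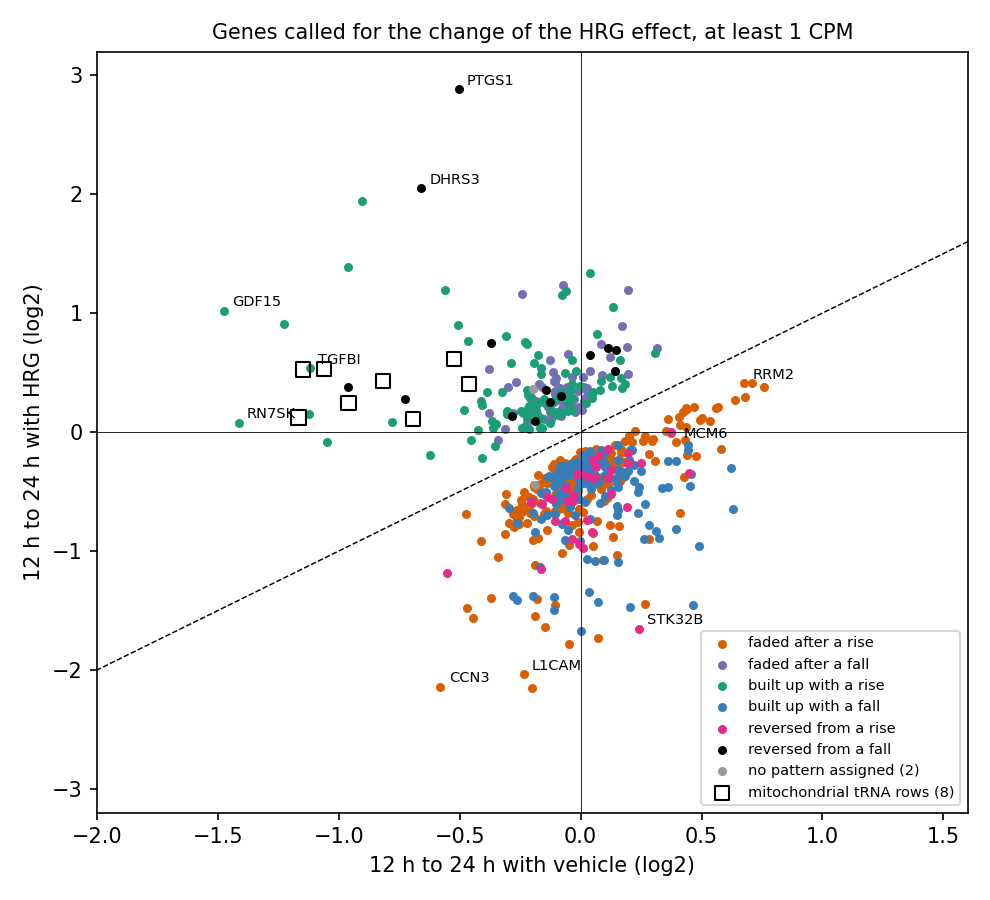
Change from 12 h to 24 h with vehicle (x axis, log2) and with HRG (y axis, log2) for the 616 genes of at least 1 CPM called for the change of the HRG effect, colored by pattern, with the 8 called mitochondrial tRNA rows as open squares and a dashed line where both changes are equal. Most points are spread along the HRG axis, and the squares lie to the left, where the vehicle level fell.

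The remaining lists held few calls, to be read beside 1.73% of all genes called downward and 0.764% upward. Sterol synthesis gave 2 of 24 downward, among them HMGCS1, an enzyme early in the pathway, at -0.30 ± 0.079 (SE, adjusted p = 0.032), and 23 of 24 estimates were below 0. HRG raised 19 of the 24 genes at 12 h and 17 at 24 h, where 13.3% and 12.5% of all genes were called up. Glycolysis and HIF targets gave 1 downward, the phosphofructokinase PFKP at -0.37 ± 0.059 (SE, adjusted p = 7.5e-05), and 1 upward, the kinase PDK3 at 0.26 ± 0.059 (SE, adjusted p = 0.007), of 31. The TGF-beta and BMP list gave BAMBI, a pseudoreceptor, upward at 0.40 ± 0.070 (SE, adjusted p = 3.1e-04) and the ligand BMP7 downward at -0.48 ± 0.054 (SE, adjusted p = 1.6e-07), beside TGFBI above. BMP7 measured 210.4 and 209.8 CPM with vehicle against 425 and 439.9 CPM with HRG at 12 h, and 209 and 208 CPM against 295 and 320.1 CPM at 24 h, above vehicle in every HRG library at both times. Of the amino acid and stress response genes, GDF15 and the serine pathway enzyme SHMT2 (0.24) were called, 2 of 26. FADS1 was the called gene of 12 in fatty acid synthesis (-0.22) and MUC5B that of 10 mucins and aquaporins (-0.68), and the clock list added PER3 (0.39) and NPAS2 (-0.75) to NR1D2.

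No gene was called among 26 of ribosome biogenesis, 14 endoplasmic reticulum chaperones, 10 heat shock genes, 26 interferon response genes, 19 NF-kB and chemokine genes, 13 of the BCL2 family or 4 metallothioneins, where 2.5% of all genes were. Ribosome biogenesis kept its rise, with 22 of 26 genes called up at 12 h and 21 at 24 h, beside 13.3% and 12.5% of all genes. Its median effects were 0.35 and 0.29. Of the genes called in the lists above, HMGCS1, PDK3, SHMT2, FADS1, MUC5B, PER3 and NPAS2 lost their call without 1 or more single libraries. HMGCS1 was not called without vehicle replicate 1 at 12 h, HRG replicate 1 at 12 h, vehicle replicate 1 at 24 h or HRG replicate 1 at 24 h (-0.27 to -0.24) or under the DESeq2 Wald test or with the stricter count filter. PDK3 was not called without vehicle replicate 2 at 12 h, HRG replicate 1 at 12 h or vehicle replicate 1 at 24 h (0.22 to 0.23). SHMT2 was not called without either vehicle library at 12 h, either HRG library at 12 h, either vehicle library at 24 h or HRG replicate 1 at 24 h (0.18 to 0.27) or under the DESeq2 Wald test or in a fit of the 8 libraries alone. FADS1 was not called without either vehicle library at 12 h, HRG replicate 1 at 12 h, vehicle replicate 1 at 24 h or HRG replicate 2 at 24 h (-0.22 to -0.16). MUC5B was not called without either vehicle library at 12 h, HRG replicate 2 at 12 h, vehicle replicate 2 at 24 h or HRG replicate 1 at 24 h (-0.68 to -0.43) or under the DESeq2 Wald test or with the stricter count filter. PER3 was not called without vehicle replicate 1 at 12 h, either HRG library at 12 h, either vehicle library at 24 h or HRG replicate 2 at 24 h (0.31 to 0.42) or under the DESeq2 Wald test or in a fit of the 8 libraries alone. NPAS2 was not called without either vehicle library at 12 h, either HRG library at 12 h, either vehicle library at 24 h or either HRG library at 24 h (-0.83 to -0.68) or under the DESeq2 Wald test or after thinning to equal depth.

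**Figure D5:**
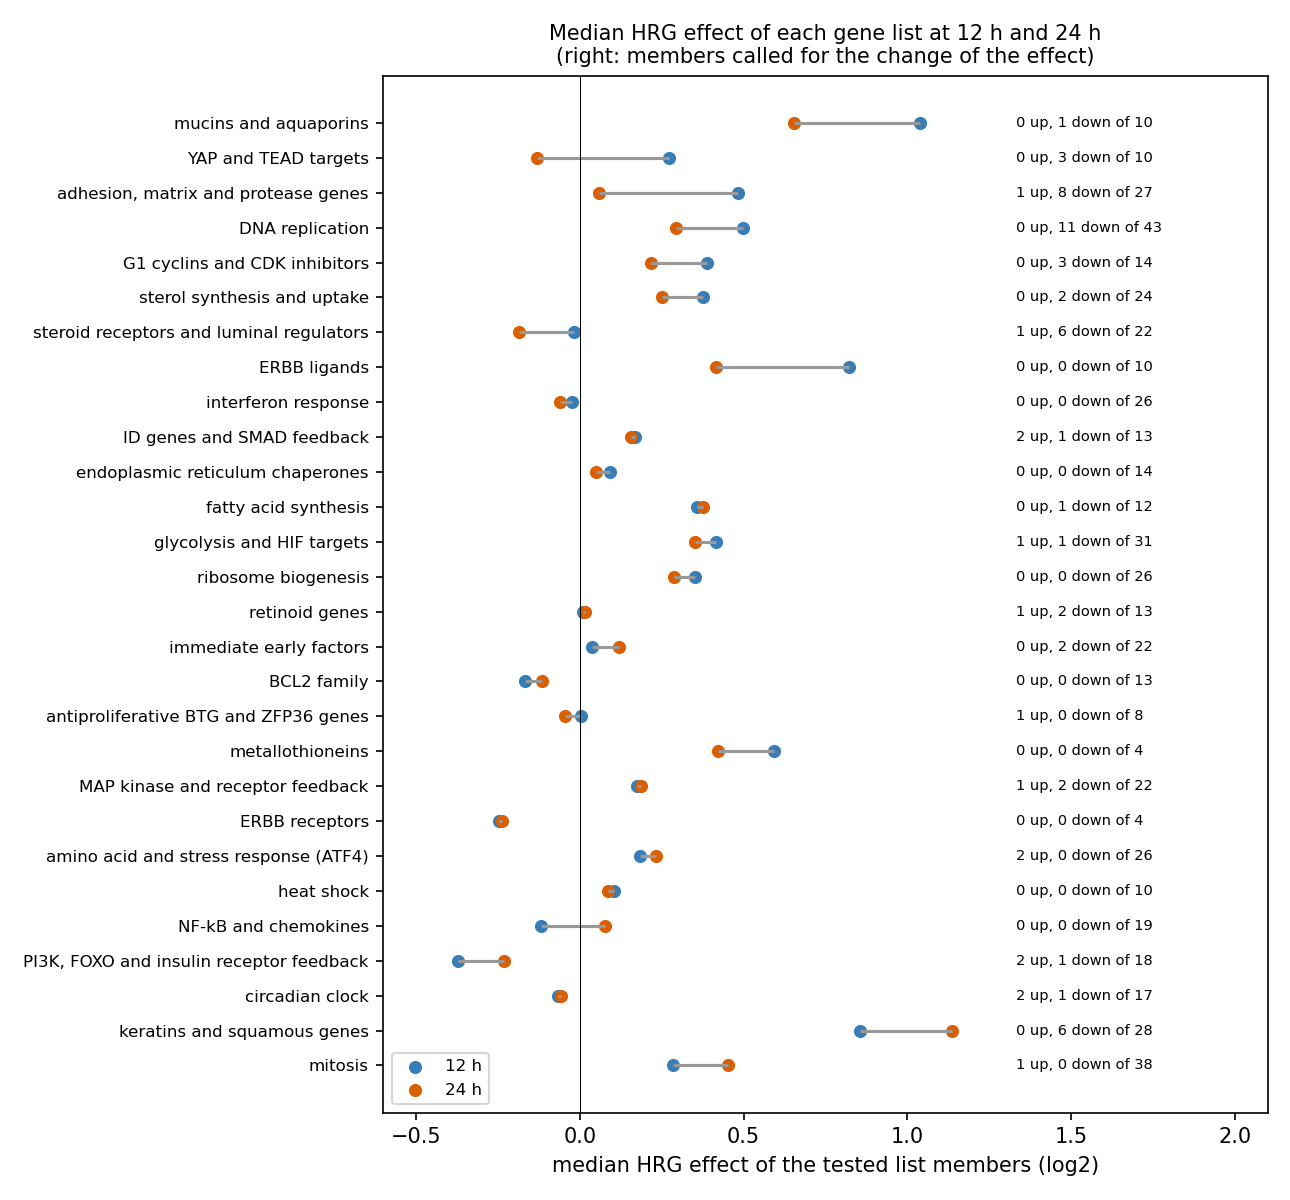
Median HRG effect (x axis, log2) of each gene list at 12 h (blue) and 24 h (orange), with the number of members called up and down for the change at the right. The DNA replication median moves toward 0 and the mitosis median away from it.

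The change with HRG was also compared with that under EGF, a ligand of EGFR, over the same hours. The vehicle libraries cancel in this test, which is the change over time with HRG minus the change over time with EGF. It was called at 38 of 25146 genes (0.151%), at 35 of them with a more negative change under HRG (0.139%) and at 3 with a more positive one (0.0119%). Of these 38 genes 34 were also called for the change of the HRG effect (2.5% of all genes). They included 22 rises that faded and 7 reversals from a rise. Both tests use the same HRG libraries, so part of this overlap is built in and it gives no separate support. The EGF effect itself changed at 130 genes (0.517%), and it shares its vehicle libraries with the HRG effect. Of the 628 genes called for HRG, 619 had an EGF change of the same sign, and at 103 the EGF change was called too. The shared vehicle libraries build in part of this likeness.

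The keratins KRT8 and KRT80 and the genes ACTB, MYH9 and FLNA were 5 of the 38. ACTB, MYH9 and FLNA were picked after their values were seen and because of this call, so their place among the 38 is no separate result. MYH9 fell over time by -0.60 with HRG and the difference from EGF was -0.34 ± 0.040 (SE, adjusted p = 1.1e-05). Its effect went from 0.58 at 12 h to 0.15 at 24 h with HRG, and from 0.27 to 0.18 with EGF. ACTB differed by -0.28 ± 0.039 (SE, adjusted p = 2.4e-04), KRT8 by -0.30 ± 0.042 (SE, adjusted p = 2.4e-04) and FLNA by -0.24 ± 0.040 (SE, adjusted p = 0.0024). KRT80 differed by -0.47 ± 0.071 (SE, adjusted p = 4.6e-04), its EGF effect being 1.01 at 12 h and 1.00 at 24 h. In each of these 5 genes the estimate at 12 h was larger with HRG than with EGF and the estimates at 24 h were closer to each other, differences at single times that were not tested.

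Among genes of at least 1 CPM also called for the change of the HRG effect, the difference was largest at STK32B, at -1.33 ± 0.23 (SE, adjusted p = 0.0028). LATS2 followed at -0.99 ± 0.17 (SE, adjusted p = 0.0032). LATS2 had an EGF effect of -0.43 at 12 h and -0.12 at 24 h. PRUNE2 measured 11.4 and 12.4 CPM with vehicle against 22.3 and 22.03 CPM with HRG at 12 h, and 10.6 and 12.8 CPM against 11.3 and 15.1 CPM at 24 h, and the ligands differed by -0.86 ± 0.19 (SE, adjusted p = 0.045). TUBB6, a beta-tubulin, measured 18.99 and 16.97 CPM with vehicle against 39.1 and 43.3 CPM with HRG at 12 h, and 17.1 and 14.5 CPM against 24.01 and 19.6 CPM at 24 h, and the ligands differed by -0.55 ± 0.12 (SE, adjusted p = 0.044). The 3 genes with the opposite sign were BRINP2 at 0.65 ± 0.13 (SE, adjusted p = 0.026), BTG2 at 0.35 ± 0.072 (SE, adjusted p = 0.024) and ELAPOR1 at 0.27 ± 0.052 (SE, adjusted p = 0.013). ELAPOR1 measured 395 and 397 CPM with vehicle against 243 and 240.5 CPM with HRG at 12 h, and 408 and 393 CPM against 314 and 316 CPM at 24 h, and its HRG effect went from -0.71 at 12 h to -0.35 at 24 h beside EGF effects of -0.29 and -0.19. The count of 38 was 8 and 10 without EGF replicates 1 and 2 at 12 h, 18 and 14 without HRG replicates 1 and 2 at 12 h, and 75 and 83 without EGF replicates 1 and 2 at 24 h.

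In DNA replication the EGF effect changed at 4 of 43 genes, all downward (0.227% of all genes), with a median change of -0.13 beside -0.16 for HRG, and none of the 11 called genes was called for a difference between the ligands. MCM6 had an EGF change of -0.38 (adjusted p = 2.7e-04), and the difference was -0.092 (adjusted p = 0.91). In the mitosis list the EGF effect changed upward at 6 of 38 genes (0.29% of all genes), beside 1 for HRG. The median changes there were 0.24 with EGF and 0.15 with HRG. The study gave EGF at a higher mass concentration than HRG, so that ligand and dose cannot be told apart in any of these differences.

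BT474R, fitted with BT474 in 1 model of all 40 libraries, differed in the change of the HRG effect at 22 of 24641 genes (0.0893%), 7 upward (0.0284%) and 15 downward (0.0609%) in BT474R relative to BT474. All 22 were among the genes called in BT474, beside 2.5% of all genes tested there. The line difference contains the BT474 change from the same libraries. Part of this overlap is thus built in, and it gives no separate support. PTGS1 changed by 0.79 ± 0.33 (SE) in BT474R, and the lines differed by -2.62 ± 0.48 (SE, adjusted p = 0.011). DHRS3 changed by 0.90 ± 0.17 (SE), and the lines differed by -1.84 ± 0.34 (SE, adjusted p = 0.011). ABCC12, an ABC transporter, measured 13.1 and 15.3 CPM with vehicle against 20.2 and 19.4 CPM with HRG at 12 h, and 8.19 and 8.26 CPM against 19.00 and 23.3 CPM at 24 h in BT474, and the lines differed by -1.47 ± 0.24 (SE, adjusted p = 0.0056). SLC4A8, a bicarbonate transporter, differed by -0.95 ± 0.19 (SE, adjusted p = 0.036).

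In the opposite direction UBE2QL1 led, with 9.51 and 9.400 CPM with vehicle against 10.1 and 10.9 CPM with HRG at 12 h, and 10.5 and 10.6 CPM against 4.64 and 5.25 CPM at 24 h in BT474. Its fall at 24 h gave a change of -1.25 ± 0.16 (SE, adjusted p = 1.6e-06) there and of 0.22 ± 0.21 (SE) in BT474R, a difference of 1.44 ± 0.27 (SE, adjusted p = 0.011). FAM83B, a regulator of MAP kinase signaling, differed by 0.90 ± 0.15 (SE, adjusted p = 0.0061). TCN1, a secreted vitamin B12 binder, measured 803 and 744 CPM with vehicle against 1087 and 1119 CPM with HRG at 12 h, and 806 and 671 CPM against 713 and 692 CPM at 24 h in BT474, and differed by 0.85 ± 0.13 (SE, adjusted p = 0.0017). CTNNAL1, an alpha-catulin, differed by 0.67 ± 0.14 (SE, adjusted p = 0.038). The count of 22 was 110 and 58 without HRG replicates 1 and 2 of BT474R at 24 h, 4 without HRG replicate 2 of BT474 at 12 h, and 7 to 33 when any other of the 16 libraries compared was left out. It was 0 in a fit of those 16 libraries alone, where 1183 genes had an unadjusted p below 0.05, and 39 under DESeq2.

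Within BT474R alone 7 of 24287 genes were called for the change (0.0288%), all downward, namely ACTB, ACTG1, FLNA, MYOF, LMO7, ITGB4 and SPNS2. The first 6 were also called in BT474 as rises that faded. ACTB changed by -0.39 ± 0.055 (SE) in BT474R and by -0.39 in BT474, and FLNA by -0.34 ± 0.060 (SE) and -0.47. Neither differed between the lines past the threshold (ACTB -0.020, adjusted p = 1, and FLNA 0.10, adjusted p = 0.87). BT474R is 1 clone, so that its values describe that clone.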

How the data were processed

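RNA of 40 BT474 and BT474R libraries was read as deposited counts per gene (44584 names). The authors made these counts from paired-end reads of poly(A) libraries (Kapa mRNA HyperPrep), with Trim Galore 0.6.6 for trimming, alignment to GRCh38.p13 and featureCounts for counting. Which annotation release and strand setting were used, and how reads with several matches were handled, is not given in the sources used here. Groups were taken from the sample titles.

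The counts were fitted with edgeR 4.0.16 (R 4.3.3, TMM, quasi-likelihood test, 1 mean per group) over all 20 BT474 libraries, keeping the 25146 genes that had 1 or more counts in 50% or more of them. The change of the HRG effect was the interaction of treatment with time. The difference between lines was fitted in all 40 libraries (24641 genes). P-values were two-sided and adjusted by Benjamini-Hochberg with a threshold of 0.05. Depth of the 8 compared libraries was 19941960 to 29098915 counts, so that 3 counts, taken as the floor of detection, equal 0.104 to 0.146 CPM, which covers counting error only. A gene called for the change was placed as faded where the effect was called at 12 h and was smaller or not called at 24 h, as built up where it was called at 24 h and was not called or smaller at 12 h, and as reversed where it was called at both times with opposite signs.

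Named genes were, per pattern, the 6 (3 per direction for reversals) with the largest change among called genes of at least 1 CPM on average whose change kept its sign in all 16 choices of 1 library per group, leaving out LOC names and rows that repeat a name with a number, and the called members of the lists, some of which are not reported here. The lists, the rule and the comparison were chosen with earlier results of these data known. The test was first run on simulated counts with known changes in 200 genes. It called 38 of 68 log2 changes of 0.5, 47 of 66 of 1 and 65 of 66 of 2. Of its 169 calls 19 were unchanged genes, and 3 genes were called where no gene was changed.

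Alternatives were DESeq2 1.42.0 (Wald test, and its size factors in edgeR), edgeR's filterByExpr, no filter, a replicate block, counts thinned to equal depth, summing of 5078 rows that repeat a gene name with a number, a fit of the compared libraries alone, and leaving out each library. Counts of list members under these alternatives were added after seeing the data.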

Additional observations from a re-analysis of the deposited data

Results flagged for a closer look

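The genes here stand out because effects under the same contrast differed between time points, ligands or lines by a test of the difference itself (edgeR quasi-likelihood test, Benjamini-Hochberg adjusted p below 0.05). The gene lists had no test of their own and are given by their counts of called members. The HRG effect differed between 12 h and 24 h at 628 genes, the change over these hours differed between HRG and EGF at 38, and the change of the HRG effect differed between BT474R and BT474 at 22.

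Among the gene lists, adhesion, matrix and protease genes had 9 of 27 members called for the change, steroid receptors and luminal regulators 7 of 22, DNA replication 11 of 43 and keratins 6 of 28, beside 2.5% of all genes tested. YAP and TEAD targets had 3 of 10, ID and SMAD feedback and retinoid genes 3 of 13 each, G1 cyclins 3 of 14, the circadian clock 3 of 17, PI3K and FOXO 3 of 18 and MAP kinase feedback 3 of 22. Immediate early factors had 2 of 22, sterol synthesis 2 of 24, the ATF4 response 2 of 26 and glycolysis 2 of 31, and the mitochondrial tRNA rows, a list chosen after the values were seen, had 8 of 22.

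Single genes whose rise faded were UGT1A6 (change -1.95), EFEMP1 (-1.80), L1CAM (-1.80), TNFRSF11B (-1.73), RAB31 (-1.71) and CCN3 (-1.56). Falls that faded were those of TCP11L2 (1.40), ZBTB20 (1.31), TRNT (1.21), TRNC (1.14), BTN3A2 (1.00) and TRNN (0.86). Rises built up at CDH5 (2.85), GDF15 (2.50), H1-4 (2.35), BPIFA2 (2.13), FAM177B (1.76) and TGFBI (1.66). Falls built up at CYP1A2 (-1.92), ADCY2 (-1.68), THBD (-1.68), PCDH7 (-1.50), ESRRB (-1.45) and CTTNBP2 (-1.39). Reversals were STK32B (-1.89), WNT9A (-0.99), DNAJC6 (-0.98), PTGS1 (3.39), DHRS3 (2.72) and TRNS2 (1.67).

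The ligands differed (HRG minus EGF) at STK32B (-1.33), LATS2 (-0.99), PRUNE2 (-0.86), TUBB6 (-0.55), BRINP2 (0.65), BTG2 (0.35) and ELAPOR1 (0.27). The lines differed (BT474R minus BT474) at PTGS1 (-2.62), DHRS3 (-1.84), ABCC12 (-1.47), SLC4A8 (-0.95), UBE2QL1 (1.44), FAM83B (0.90), TCN1 (0.85) and CTNNAL1 (0.67).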

How the results depend on the processing

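No gene named for the change of the HRG effect turned its direction under any alternative or without any library. Of 138 called genes followed, 89 kept their call throughout. The count of 628 was 503 to 906 under the other settings (503 with DESeq2, 804 with no filter on low counts, 691 with a replicate block, 906 with a replicate block within each time point), and 372 to 709 when single libraries were left out, with 58.4% of calls downward without HRG replicate 2 at 24 h against 69.4%. Leaving out single libraries gave 4547 to 5322 genes for the HRG effect at 12 h, 4311 to 5375 at 24 h, 1747 to 2654 for the change with HRG, 441 to 584 for the change with vehicle, 179 to 358 faded, 163 to 290 built up and 29 to 55 reversed. DESeq2 gave 34 reversals, of 54. The ligand difference (38) was 97 with no filter, 101 with the replicate block within each time point, 24 with copy rows summed, 11 in a fit of the compared libraries alone and 8 to 83 without single libraries. The line difference (22) was 39 with DESeq2, 129 with no filter, 51 with the replicate block within each time point, 13 after thinning, 0 in a fit of the compared libraries alone, where 1183 genes had an unadjusted p below 0.05, and 4 to 110 without single libraries. The cause was not tested. Replicate numbers were not taken to pair the samples, since no label ties them to a shared batch. The deviations of vehicle and HRG libraries of the same number correlated at -0.106 at 12 h and 0.42 at 24 h over 10707 genes, which does not settle pairing at 24 h, and the block results above are a hint from the data only. Counts of list members, an analysis chosen after seeing the data, were 10 to 14 for DNA replication over the other settings and 5 to 11 without single libraries. With 2 libraries per group, genes below about 1 CPM had wide intervals, and a change not called at this depth and replication was not shown to be absent.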
